A study of Rattus norvegicus with 7 samples.

Results

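The genes described here are the heme oxygenase gene Hmox1 and 9 further genes of the NRF2 pathway, Srxn1, Gclm, Gclc, Txnrd1, Nqo1, Slc7a11, Osgin1, Nfe2l2 and Keap1, in rat alveolar macrophages exposed to zinc oxide nanoparticles. They were taken by gene name from the annotation of an expression array, with every probe that carried one of these names. The 10 genes had 12 of the 45598 probes and 14 of the 58717 spots outside the control spots. Of them, 9 genes with 11 probes were bright enough to be tested, among 20036 probes of 16154 gene or transcript names. No member passed the test after correction over all probes, and only 10 of the 20036 probes did (0.0499%). Hmox1 had the largest fold change of the members. It was higher on every ZnO array than on every control array, as were 3.79% of all probes tested.

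NRF2, the product of Nfe2l2, is a transcription factor that KEAP1 holds and hands to a ubiquitin ligase for breakdown. Oxidants and electrophiles that react with cysteines of KEAP1 let NRF2 build up, pair with small MAF proteins and bind antioxidant response elements near genes for glutathione synthesis, thioredoxin recycling and quinone reduction. Hmox1 breaks heme down to biliverdin, iron and carbon monoxide, and it is also held down by the repressor BACH1, which heme releases from DNA; alveolar macrophages use these enzymes when they clear particles and red cells from the airways.

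NR8383, a macrophage line from rat lung, was exposed for 4 h to ZnO nanoparticles at 2 µg/mL (the concentration in the sample labels, which is not the one given in the study's text) or left unexposed, in both cases in medium without serum. RNA of 3 ZnO cultures and 4 control cultures was hybridised to 1-colour arrays. The study planned biological replicates of 1 cell line, so the p-values measure the spread between these samples. All arrays lay on 1 slide, with the ZnO arrays in column 2 and the control arrays in column 1, so that column and exposure cannot be told apart.

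Values below are log2 intensities after background correction, scaled so that each array's own 75th percentile is 0, and a difference of 1 is a doubling. The percentile lay between 980 and 1603 on the ZnO arrays and between 958 and 1489 on the control arrays. The share of spots well above background was 52.9% to 54.3% on the ZnO arrays and 51.7% to 56.0% on the control arrays, with 0 saturated. Of the 12 macrophage markers listed, 10 were well above background on every array, Marco was so on 0 arrays, and 0 of the 10 passed the test. Of 27 markers of other cell types, 7 were well above background on every array and 15 on none. These types were neutrophils, endothelial cells, fibroblasts, lymphocytes and epithelial cells. The 7 were Pecam1, Cdh5 and Vwf of endothelial cells, Col1a2 and Dcn of fibroblasts, and Mpo and Camp of neutrophils. All 5 measured lymphocyte markers were among the 15. The zinc-binding metallothioneins Mt2A and Mt1a and the zinc exporter Slc30a1 rose on the ZnO arrays, with log2 fold changes of 5.83 ± 0.13, 3.40 ± 0.11 and 1.37 ± 0.09 (SE) and adjusted p-values of 3.87e-06, 3.73e-05 and 0.00278 by limma's moderated test. Slc30a1 lost this call under 4 of 19 alternative ways of processing, and Mt1a under 1.

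The probe sequences of the members on which the results turn are shown 5′ to 3′, because each value is the signal of only that stretch of the transcript. They cover the 4 genes whose ZnO arrays all lay above the control arrays, which held for 3.79% of all probes tested. They also cover the 2 probes of Txnrd1, which had opposite signs. Positions are those of the array files on rat build rn4, and no part is set in capitals.
Hmox1, chr19:13969336-13969395, plus strand: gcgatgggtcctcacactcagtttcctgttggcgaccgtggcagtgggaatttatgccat
Srxn1, chr3:142462543-142462602, plus strand: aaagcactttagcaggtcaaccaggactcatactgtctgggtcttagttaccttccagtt
Gclc, chr8:82762574-82762633, plus strand: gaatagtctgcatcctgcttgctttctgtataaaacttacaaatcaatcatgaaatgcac
Osgin1, chr19:49689658-49689717, plus strand: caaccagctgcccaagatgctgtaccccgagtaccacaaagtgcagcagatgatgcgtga
Txnrd1, chr7:23065196-23065255, minus strand: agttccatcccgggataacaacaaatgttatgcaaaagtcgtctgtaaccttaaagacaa
Txnrd1, chr7:23055528-23055561, minus strand: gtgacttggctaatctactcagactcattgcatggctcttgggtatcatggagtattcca
The position of the last probe spans 34 bases, fewer than the 60 of its sequence. These annotations give the gene and the position of a probe, not its exon.

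Hmox1, the inducible heme oxygenase, had values of 4.32, 4.53 and 4.92 on ZnO replicates 1 to 3. On control replicates 1 to 4 it had values of 3.08, 3.57, 3.27 and 3.93. The lowest ZnO array lay 0.39 above the highest control array, which was replicate 4, and the groups did not overlap. Before any scaling between arrays, the intensities were 19533, 30154 and 48464 on the ZnO arrays and 11103, 17657, 11345 and 14601 on the control arrays. These did not overlap either. The mean was 4.59 ± 0.30 on the ZnO arrays (SD, n = 3) and 3.46 ± 0.37 on the control arrays (SD, n = 4). This is a 2.19-fold difference with a 95% interval of 1.52 to 3.14, or a log2 fold change of 1.13 ± 0.22 (SE).

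**Figure D1:**
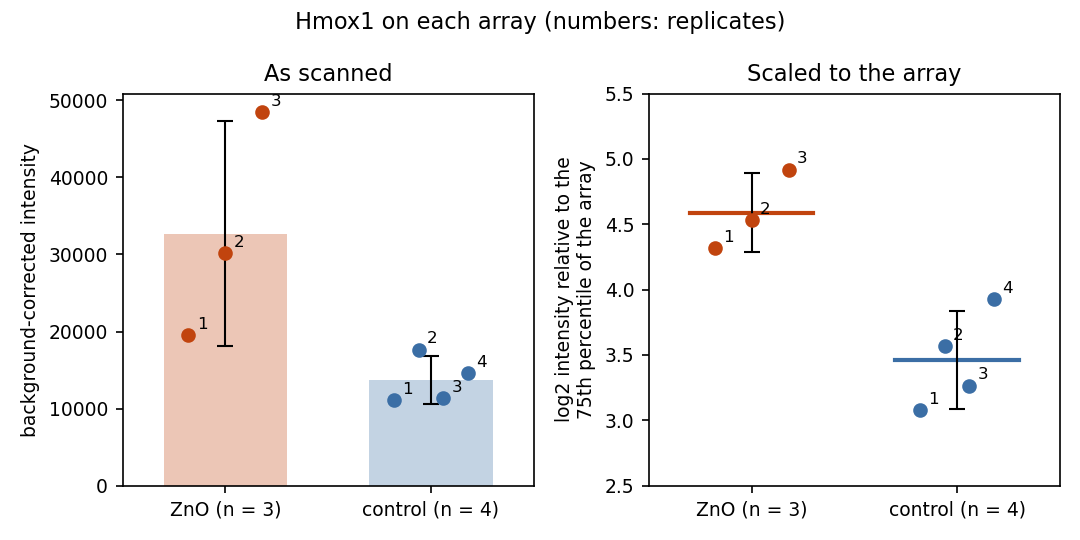
Hmox1 on each array, ZnO left of control, with replicate numbers beside the points and error bars of 1 SD around the mean. The left panel gives the background-corrected intensity with bars at the mean, and the right panel the scaled log2 intensity (the 75th percentile of each array set to 0) with lines at the mean; in both, the 3 ZnO arrays lie above the 4 control arrays.

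Among the 20036 probes tested, Hmox1 had the 13th largest rise, and by unadjusted p, which was 0.00118 with limma, it ranked 56th. After Benjamini-Hochberg adjustment over all probes the p was 0.415, so the change did not pass. The control arrays of Hmox1 spread more than most: their SD of 0.37 was larger than that of 92.0% of the probes tested, where the median SD was 0.13. Only 10 probes passed the adjusted test, all of them higher on the ZnO arrays, which is 0.0499% of those tested. Under centring on the median, and likewise under normexp with quantile normalization, the split was 8 higher and 1 lower. It was 10 higher and 4 lower with a trended robust variance, and 11 higher and 4 lower with array weights.

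On the slide, ZnO replicates 1 to 3 shared rows 2 to 4 with control replicates 2 to 4. Within these rows Hmox1 was higher on the ZnO array by 0.75, 1.27 and 0.99 on the log2 scale. With the row as a block, in which control replicate 1 adds nothing because it stands alone in its row, the log2 fold change was 1.00 and the adjusted p was 1.00.

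Srxn1, which encodes sulfiredoxin, the enzyme that reduces overoxidised peroxiredoxins, had values of 2.45, 2.44 and 2.59 on the ZnO arrays. The control arrays had 2.16, 2.21, 2.13 and 2.12. The groups did not overlap, with a gap of 0.23, and control replicate 4, the highest control for Hmox1, was the lowest for Srxn1. The log2 fold change was 0.34 ± 0.07 (SE), a 1.26-fold difference with a 95% interval of 1.13 to 1.41. The SD between its control arrays was 0.04, larger than that of only 4.16% of the probes tested. The unadjusted p by limma was 0.00144 and the adjusted p 0.418. As scanned, before scaling between arrays, the intensities of Srxn1 overlapped, at 5353, 7077 and 9644 on the ZnO arrays and at 5871, 6885, 5172 and 4165 on the control arrays.

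Gclc and Gclm encode the catalytic and the modifier subunit of glutamate-cysteine ligase, the first step of glutathione synthesis. Gclc had values of 1.60, 1.72 and 1.74 on the ZnO arrays and 1.53, 1.54, 1.47 and 1.52 on the control arrays. The groups did not overlap, but the gap was only 0.06. Before scaling between arrays they did overlap. The intensities were then 2976, 4282 and 5366 on the ZnO arrays and 3809, 4344, 3272 and 2748 on the control arrays. The log2 fold change of Gclc was 0.17 ± 0.07 (SE; 95% interval 0.01 to 0.33), with an adjusted p of 0.824 by limma. Gclm's probe was not well above background on any of the 7 arrays, so no level or fold change is given for it.

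Osgin1, which encodes a growth inhibitor induced by oxidative stress, was measured at low signal. Its values were -4.12, -4.37 and -4.32 on the ZnO arrays and -4.68, -4.45, -4.53 and -4.39 on the control arrays. The groups were parted by only 0.01, between ZnO replicate 2 and control replicate 4. Before scaling between arrays they overlapped. The intensities were then 56, 63 and 80 on the ZnO arrays and 51, 68, 51 and 46 on the control arrays. The log2 fold change was 0.24 ± 0.10 (SE; 95% interval 0.01 to 0.47), and the adjusted p was 0.835 by limma. With normexp background correction the log2 fold change was 0.10.

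**Figure D2:**
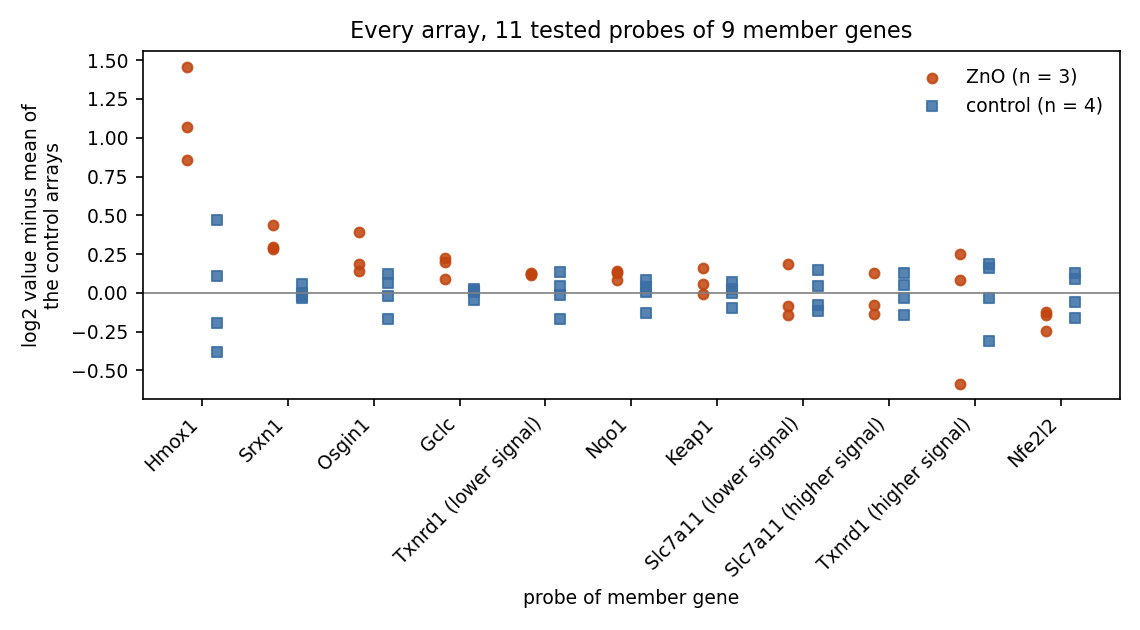
Each tested probe of the member genes on each array, as the log2 value minus the mean of the control arrays, with ZnO (circles) left of control (squares) and probes in order of their fold change. Hmox1, Srxn1, Osgin1 and Gclc have all 3 ZnO points above all 4 control points, as do 3.79% of all probes tested. The other 7 probes overlap.

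Nqo1, the quinone reductase often used as an NRF2 target, had values of -1.90, -1.95 and -1.91 on the ZnO arrays and -2.03, -2.16, -1.95 and -1.997 on the control arrays. Control replicate 3 lay level with the lowest ZnO array, so the groups overlapped narrowly. The log2 fold change was 0.12 ± 0.07 (SE), with an adjusted p of 0.931 by limma, and was 0.074 without control replicate 2. In fold terms the 95% interval ran from 0.962 to 1.22.

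Txnrd1, the cytosolic thioredoxin reductase, was measured by 2 probes. The probe whose position starts at 23065196 had values of -2.13, -2.12 and -2.13 on the ZnO arrays, and of -2.21, -2.42, -2.12 and -2.26 on the control arrays. Control replicate 3 lay above all 3 ZnO arrays there, and the log2 fold change was 0.12 ± 0.08 (SE), and 0.066 without control replicate 2. The other probe, which has the higher signal and stands for the gene in the counts, had values of -1.28, -0.61 and -0.44 on the ZnO arrays and of -0.53, -0.51, -1.003 and -0.73 on the control arrays. ZnO replicate 1 was the lowest of the 7 arrays on that probe, and ZnO replicate 3 the highest. Its log2 fold change was -0.08 ± 0.21 (SE), and ran from -0.25 without ZnO replicate 3 to 0.17 without ZnO replicate 1. The adjusted p-values of the 2 probes by limma were 0.939 and 0.999.

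Slc7a11, the cystine importer that feeds glutathione synthesis, also had 2 probes, and the groups overlapped on both. The probe with the higher signal had values of 1.58, 1.37 and 1.32 on the ZnO arrays and of 1.58, 1.31, 1.502 and 1.42 on the control arrays. The log2 fold change was -0.03 ± 0.10 (SE) for this probe and -0.02 ± 0.11 (SE) for the other. Their 95% intervals were 0.838 to 1.15 and 0.832 to 1.18 in fold terms. Neither passed the test, each with an adjusted p of 0.999 by limma.

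The transcription factor and its sensor showed small differences. Nfe2l2 had values of 1.67, 1.66 and 1.55 on the ZnO arrays and of 1.93, 1.89, 1.74 and 1.64 on the control arrays. Control replicate 4 lay within the ZnO range, below 2 of the ZnO arrays. The log2 fold change of Nfe2l2 was -0.17 ± 0.09 (SE; 95% interval -0.38 to 0.04), with an adjusted p of 0.894 by limma. Keap1 had values of -2.12, -2.19 and -2.02 on the ZnO arrays and of -2.11, -2.18, -2.16 and -2.28 on the control arrays, which overlapped. Its log2 fold change was 0.07 ± 0.08 (SE), and its 95% interval ran from 0.930 to 1.19 in fold terms. The log2 fold change was 0.026 without ZnO replicate 3, 0.111 without ZnO replicate 2 and 0.039 without control replicate 4. KEAP1 acts on the NRF2 protein, which arrays of RNA do not measure.

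**Figure D3:**
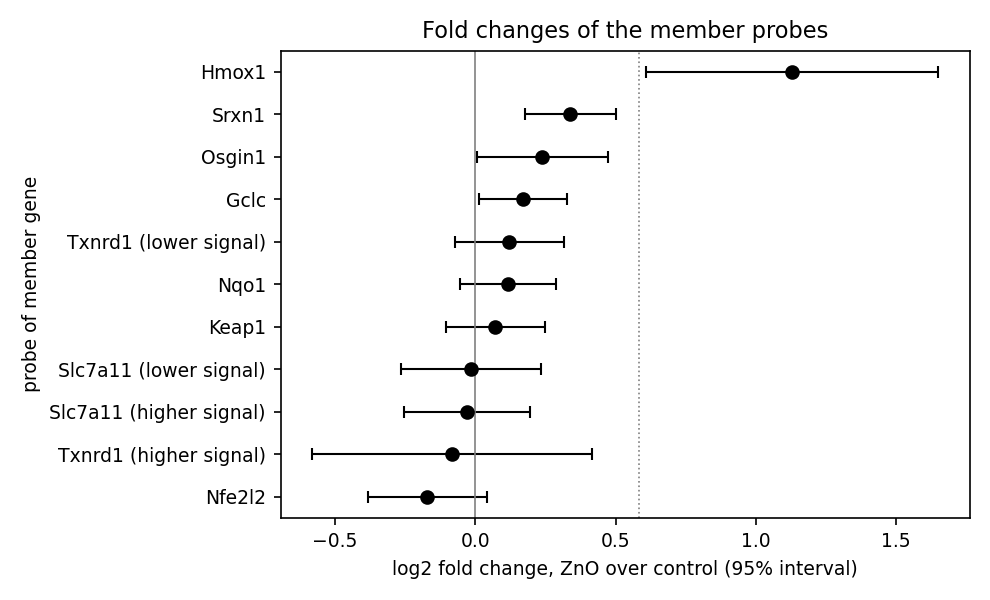
Log2 fold change of ZnO over control for each tested probe of the member genes, with bars for the 95% interval of limma's fit; the dotted line marks a 1.5-fold rise. The interval of Hmox1, 0.61 to 1.65, is the only one that lies wholly above that line.

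Counted over the 9 genes tested, with the probe of the highest signal for each, 0 passed the adjusted test in either direction. Of all 20036 probes tested, 10 passed it (0.0499%). The study's stricter thresholds are a fold change over 1.5 and an adjusted p under 0.001. They were passed by 0 of the 9 genes and by 4 of the 20036 probes. At an unadjusted p under 0.05, limma placed 4 of the 9 higher and 0 lower. These were Hmox1, Srxn1, Gclc and Osgin1. The number higher was 2 without control replicate 1, 2 or 3 or ZnO replicate 3, and 3 without any other array. It was 1 with spike-in centring, and 1 gene was lower with array weights and without control replicate 4. The number of all probes at that level, in either direction, moved with the setting too. It was 1186 of 20036 in the fit reported here, 39 with spike-in centring and 2659 with array weights. With 1 array left out it lay between 835 and 1792. In the fit reported here, 3.06% of all probes tested were higher and 2.86% lower at that level. The same 4 genes were those with every ZnO array above every control array, against 3.79% of all probes, and 0 had every ZnO array below, against 3.59%. A rise of over 1.5-fold was reached by 1 of the 9, Hmox1, and by 0.654% of all probes. Of the 9 log2 fold changes, 6 were above 0 and 3 below, with a median of 0.12, while the median over all probes tested was -0.01. The 3 below were Nfe2l2, Slc7a11 and Txnrd1. Slc7a11 changed sign under 4 alternatives and Txnrd1 under 3, and the other probe of Txnrd1 was at 0.12. Genes were chosen with earlier results of these data known, so these counts are a description.

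Across the alternative ways of processing, the fold changes of these 4 genes kept their sign, as the plot of settings shows. Hmox1 ran from 0.96 without ZnO replicate 3 to 1.29 without control replicate 4 on the log2 scale, and its adjusted p ran from 0.0952 with array weights to 1.00. Srxn1 ran from 0.29 to 0.44, Gclc from 0.13 to 0.27 and Osgin1 from 0.10 to 0.34. Under none of them was any of the 9 genes past the adjusted test.

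**Figure D4:**
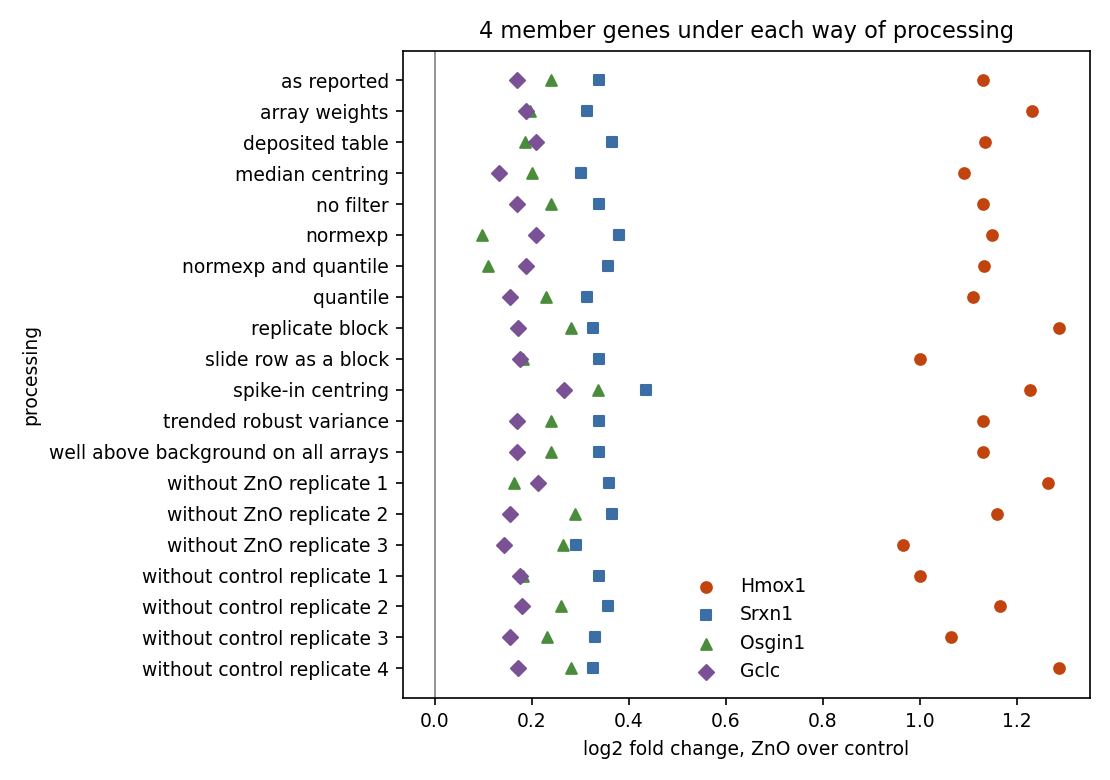
Log2 fold change of ZnO over control (x axis) of 4 member genes under each way of processing (rows; the first row holds the values of the report, and rows named "without" leave out 1 array). Hmox1 stays between 0.96 and 1.29, and Srxn1, Osgin1 and Gclc stay between 0.10 and 0.44.

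For Hmox1, the genes with the most similar pattern over the 7 arrays were sought among 9988 named genes, by the root mean square difference of values centred on the control mean. The closest were Ccdc74a, Tmco4 and Bcl3, with differences of 0.31, 0.32 and 0.32 on the log2 scale. Ccdc74a had values of -2.97, -3.08 and -2.87 on the ZnO arrays and of -3.86, -3.57, -4.04 and -3.65 on the control arrays. Tmco4 had -0.53, -0.68 and -0.55 on the ZnO arrays, against -1.52, -1.47, -1.62 and -1.55 on the control arrays. Bcl3, which encodes a nuclear partner of NF-kB subunits, had -2.18, -2.02 and -1.62 on the ZnO arrays and -2.73, -2.46, -3.00 and -2.28 on the control arrays. In each of these 3 the ZnO arrays lay above the control arrays. In Bcl3, as in Hmox1, ZnO replicate 3 and control replicate 4 were the highest of their groups. The search picks genes for such likeness to Hmox1 on these same arrays, so these traits follow from the choice. Tmco4 rose, with a log2 fold change of 0.95 and an adjusted p of 0.00545 by limma; Ccdc74a (0.81) and Bcl3 (0.68) did not pass, with adjusted p-values of 0.264 and 0.703. Tmco4 lost its call under 5 of 19 alternatives, one of them without ZnO replicate 3 (adjusted p = 0.0590 by limma).

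Promoter windows were searched for the core of the antioxidant response element, to which NRF2 binds. The windows are those of RefSeq genes on build GRCr8, from 250 bases before the transcript's start to 50 after it, and 9 of the 10 genes had at least 1 (10 windows in all, since Txnrd1 has more than 1). TGACNNNGC, searched on both strands, matched 3 of the 10 windows, those of Gclm, Txnrd1 and Nfe2l2, and 12.1% of all 33469 windows. TGAGNNNGC, the other form of the core, was added after the sequences had been seen; it matched 1 of the 10 windows, that of Srxn1, in 3 places, and 17.2% of all windows. The stretches around these matches are shown on the strand of the gene, with every match to the core in capitals.
Gclm, chr2:213031948-213031986, plus strand: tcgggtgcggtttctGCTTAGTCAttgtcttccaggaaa
Txnrd1, chr7:22755959-22755997, minus strand: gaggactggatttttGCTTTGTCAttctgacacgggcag
Nfe2l2, chr3:81028950-81028976, minus strand: gctccgactagccatTGACGCCGCctc
Srxn1, chr3:161064679-161064717, plus strand: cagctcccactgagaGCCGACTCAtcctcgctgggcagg
Srxn1, chr3:161064792-161064830, plus strand: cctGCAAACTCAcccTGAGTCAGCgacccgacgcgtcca
In Gclm and Txnrd1 the core reads on the opposite strand and begins 172 and 78 bases before the start. The Srxn1 cores begin 118, 17 and 5 bases before the start, the last of them alone on the strand of the gene, and that of Nfe2l2 lies 38 bases after it. Of the genes whose arrays did not overlap, Srxn1 had a match to 1 of these forms, Gclc and Osgin1 had none, and Hmox1 was not searched. Cores of the metal response element, the site of the zinc-sensing factor MTF1, were searched as TGCACNC and TGCGCNC on both strands. TGCACNC matched 2 of the 10 windows (Keap1 and Osgin1) and 12.2% of all windows, and TGCGCNC matched 1 (Gclm) and 14.1%. A match is a stretch of letters and was not tested as a binding site. Sequence outside the windows was not searched, so a missing match does not show that a gene lacks the element.

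The wider pathway was described with 6 lists of 76 further genes, of which 67 were bright enough to be tested. None of the 67 passed the adjusted test, which 0.0499% of all probes passed. At an unadjusted p under 0.05 by limma, 0 were higher and 0 lower, against 3.06% and 2.86% of all probes. Their median log2 fold change was 0.01, with 37 of 67 above 0 and a range of -0.27 to 0.40. Every ZnO array lay above every control array for 2 of them and below for 0, where 3.79% and 3.59% of all probes did so, and nothing is read from these counts. The single genes named below did not pass the test, and leaving out 1 array moved most of them by over 1.5 times.

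Among the regulators of NRF2 (sensor complex, partners, repressors and related factors), 16 of 17 genes were tested, and their median log2 fold change was 0.01. The highest was Bach1, the repressor of Hmox1, at 0.40 ± 0.23 (SE; adjusted p = 0.904 by limma). Its ZnO mean was -3.50 ± 0.38 (SD, n = 3) and its control mean -3.90 ± 0.34 (SD, n = 4), and a second tested probe of Bach1 had a log2 fold change of 0.04. Without ZnO replicate 1 the first probe was at 0.19, and with normexp at 0.20. The lowest was Nfe2l3, a factor related to NRF2, at -0.06 ± 0.32 (SE), a value that turned positive under 5 of 18 alternatives. Its signal was low, with a mean of -4.76 on the ZnO arrays and -4.70 on the control arrays. It was not well above background on every array, so the setting that requires this left it out.

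Of the glutathione genes, 15 of 19 were tested, with a median of -0.03. The highest was glutathione reductase, Gsr, at 0.15 ± 0.15 (SE), and the lowest was Chac1, which breaks glutathione down, at -0.17 ± 0.14 (SE). Gsr was at 0.0052 without ZnO replicate 1 and at 0.26 without ZnO replicate 2, and Chac1 ran from -0.25 without control replicate 1 to -0.086 without control replicate 4, with -0.105 without control replicate 3. All 11 genes of the thioredoxin and peroxiredoxin system were tested, and their median was 0.01. Txnrd3, a thioredoxin reductase, was the highest at 0.36 ± 0.18 (SE; adjusted p = 0.885 by limma), and Sesn2, a stress-induced sestrin, the lowest at -0.27 ± 0.20 (SE; adjusted p = 0.945). Txnrd3 was at 0.24 without ZnO replicate 1 and at 0.072 with normexp. Its signal was low, with a mean of -5.16 on the ZnO arrays and -5.52 on the control arrays. It was not well above background on every array. Sesn2 was at -0.48 without ZnO replicate 1, -0.17 without ZnO replicate 2 and -0.16 without ZnO replicate 3. The 6 genes of NADPH supply, which furnish the electrons for these reductases, were all tested and ran from -0.10 ± 0.08 (SE) for the transketolase Tkt to 0.10 ± 0.08 (SE) for the malic enzyme Me1. Without ZnO replicate 3 these were at -0.048 and 0.055, and without control replicate 3 Tkt was at -0.060.

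Of the genes for heme breakdown and for iron storage or export, 9 of 11 were tested, with a median of 0.02. They ran from -0.08 ± 0.07 (SE) for Fech, which puts iron into heme, to 0.10 ± 0.06 (SE) for Blvra, one of the enzymes that reduce the biliverdin made by heme oxygenase. A second tested probe of Blvra had the opposite sign, at -0.04, and Fech was at -0.056 without control replicate 3. The constitutive heme oxygenase Hmox2 and the ferritin subunits Fth1 and Ftl1 lay within this range. Of the detoxifying reductases and conjugating enzymes, 10 of 12 were tested, and their median was 0.06. Nqo2, the relative of Nqo1, was the highest at 0.17 ± 0.15 (SE), and the epoxide hydrolase Ephx1 the lowest at -0.19 ± 0.13 (SE). Without ZnO replicate 1 they were at 0.041 and -0.31, and without ZnO replicate 3 at 0.29 and -0.080; without control replicate 4 Nqo2 was at 0.27. None of the named genes of these lists passed the test, with adjusted p-values of 0.885 or more by limma.

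**Figure D5:**
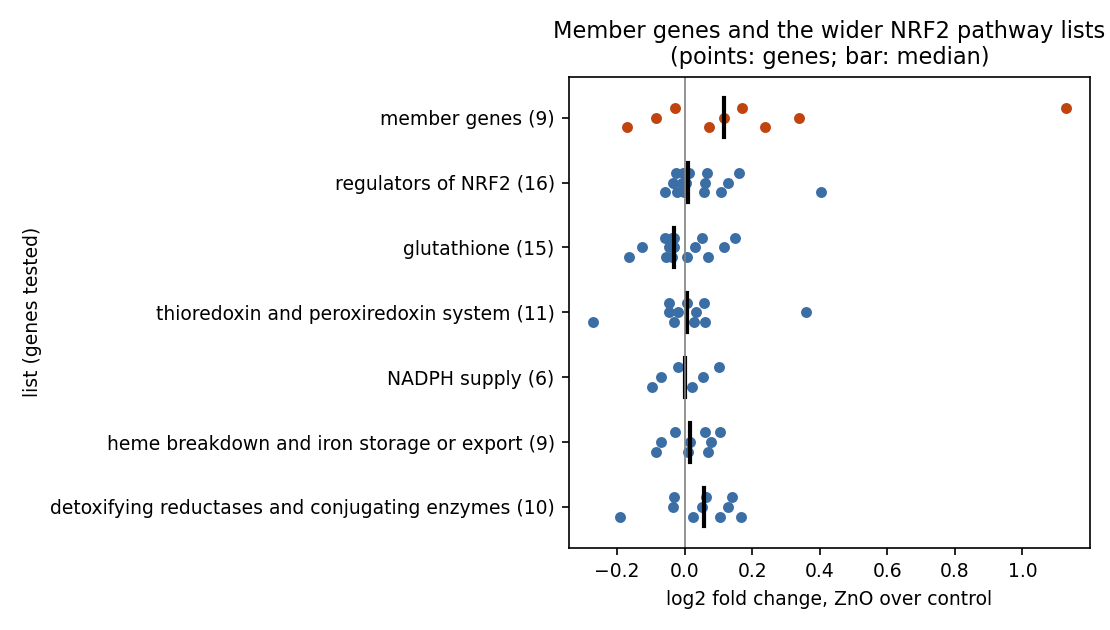
Log2 fold change of ZnO over control (x axis) for the tested genes of each list, with the number of genes tested beside the list's name, a point per gene and a black bar at the median. Hmox1, at 1.13, lies apart from the genes of all 6 wider lists, which run from -0.27 to 0.40.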

How the data were processed

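RNA of NR8383 cells was measured on Agilent 1-colour rat arrays of 8 x 60K format, 3 after ZnO and 4 of unexposed cells. The deposited files hold the fluorescence intensity of each spot as the authors extracted it with Agilent Feature Extraction 11.0.1.1 (per the labels' processing notes), with background-corrected signals (gProcessedSignal) and probe positions on rn4. The series table equals the median signal of each of the 62976 spots and was used only as an alternative. Per the methods, the authors then applied percentile normalization.

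Here, background-corrected intensities were divided by the 75th percentile of the 58717 non-control spots on their array, and their log2 values averaged over the spots of a probe, leaving out outlier flags. Probes were tested where, in at least 1 of the groups, every spot was well above background on each array. ZnO and control were compared with limma 3.58.1 (lmFit, eBayes) in R 4.3.3, with 2-sided p-values adjusted by Benjamini-Hochberg over all 20036 probes and calls at 0.05. No counts exist; the number of arrays limits the precision. Scripts were tested on simulated data.

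Named were all members with all probes; in each wider list the called genes or, where none was called, those with the largest and the smallest fold change; Mt1a, Mt2A and Slc30a1 as a check of the exposure; and the 3 genes nearest to Hmox1. A gene stands for its probe with the highest signal. Current symbols came from GRCr8 annotation: 21109 probes were matched by accession, 7108 by symbol, and 17381 kept the name in the file. Members and lists were chosen with earlier results of these data known. The closing section gives the alternatives tried.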

Additional observations from a re-analysis of the deposited data

How the results depend on the processing

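No member and no gene of the wider lists was called under any setting run that adjusts p-values, including the mean of a gene's probes. At an unadjusted p, 4 members were higher. This fell to 2 or 3 with 1 array left out, 2 with median centring, no filter or either block, and 1 with spike-in centring. The number of all probes at that level moved too. It was 1034 with median centring, 957 with the replicate block, 751 with the row block and 39 with spike-in centring. With no filter it was 1418 of 45598, and with 1 array left out it lay between 835 and 1792. The 10 probes called in all became 5 with no filter, 5 with centring on spike-in probes, 4 at the study's thresholds and 1186 at an unadjusted p under 0.05, and 7 to 8 when 1 array was left out. With the replicate number as a block the count was 4. Deviations of same-numbered samples correlated at -0.13, 0.25 and -0.31, and those of differently numbered samples at -0.46 to 0.38. Same-numbered samples were thus not more alike, but so few arrays cannot decide whether the numbers pair them. In that block, control replicate 4 adds nothing, Hmox1 was at 1.29 with an adjusted p of 0.783, and no member was called. With the slide row as a block, an alternative chosen after seeing the data, the count was 1. No fit with the slide as a block was possible, since there was 1 slide. Slc30a1 was no longer called with no filter (adjusted p = 0.0636), the replicate block (0.222), the row block (0.429) or spike-in centring (1.00), Mt1a not with the row block (0.0601), and Tmco4 not with no filter (0.192), the replicate block (0.668), the row block (0.641), spike-in centring (1.00) or without ZnO replicate 3 (0.0590), all by limma.

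The log2 fold changes of 8 member probes kept their sign under the alternatives. The higher-signal Txnrd1 probe turned to 0.0093 with array weights and 0.0132 with spike-in centring, and ranged from -0.251 to 0.166 with 1 array left out (0.166 without ZnO replicate 1). The higher-signal Slc7a11 probe turned to 0.0127 with the row block and 0.0683 with spike-in centring, and ranged from -0.106 to 0.0239 with 1 array left out (above 0 without ZnO replicate 3 and without control replicate 1). The other Slc7a11 probe turned to 0.0124 with normexp and quantile, 0.0329 with the row block and 0.0818 with spike-in centring, and ranged from -0.116 to 0.0489 with 1 array left out (above 0 without ZnO replicate 2, ZnO replicate 3 or control replicate 1). Nfe2l3 turned to 0.0651 with array weights, 0.147 with the replicate block and 0.0409 with spike-in centring, and ranged from -0.340 to 0.147 with 1 array left out (above 0 without ZnO replicate 1 or control replicate 4). Spike-in centring also turned Fech to 0.0128 and Tkt to 0.0023, and array weights turned Gsr to -0.0236. The cause was not tested. Gclm's signal, not well above background, limits what can be said of it.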
